A study of Mus musculus with 76 samples.

Results

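The data describe 4 genes of the red cell lineage, Hba-a1, Hbb-bt, Alas2 and Slc4a1, among 20710 genes measured in microdissected mouse lung tissue. They were found by symbol in the probe-to-gene table, and each was read by 1 array feature. The table lists the Hbb-bt feature under the older name Hbb-b1, and its accession is that of Hbb-bt in RefSeq. On GRCm38.p6 Hba-a1 (gene 15122) spans chr11:32283672-32284486, Hbb-bt (gene 101488143) chr7:103812524-103813923, Alas2 (gene 11656) chrX:150547417-150570622 and Slc4a1 (gene 20533) chr11:102348820-102365281. Alveolar septa (39 arrays) and vessels (37 arrays) were dissected from the lungs of 40 mice and hybridized to single-colour Agilent arrays, and each of the 16 groups held 4 or 5 arrays. Knockout mice carried C57BL/6-Noxo1(tm1881_17.2Arte), an allele of Noxo1, which encodes an organiser subunit of the NADPH oxidase NOX1, and were set beside wild-type mice. Smoke-exposed mice of both genotypes breathed smoke of Kentucky 3R4F research cigarettes (140 mg/m3 particles) from week 12, daily for 6 hours and 5 days weekly, and both genotypes also had controls. The sample titles give 8 or 3 months, while the protocol text speaks of 8 months for all. The labels do not say whether blood was flushed from the lungs, and they name no separate strain for the wild-type mice.

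Red cells lose their nucleus late in maturation, and reticulocytes, the youngest cells in blood, still carry messenger RNA, most of it for globin. Adult haemoglobin is built from alpha chains (Hba-a1 and its near-identical copy Hba-a2) and beta chains (Hbb-bt and Hbb-bs in C57BL/6 mice). Its heme needs Alas2, the erythroid form of the first and rate-limiting enzyme of heme synthesis, and Slc4a1 encodes band 3, the anion exchanger of the red cell membrane that carries bicarbonate for chloride. In lung tissue these genes are usually read as a sign of blood, although globin RNA has also been reported in other lung cells. In bulk tissue, fewer cells of a type and less RNA per cell cannot be told apart.

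Promoters are shown for Hba-a1, Hbb-bt and Alas2, since RefSeq's table matched 3 of the 4. These 3 genes varied together across mice, and whether their promoters have a part in that was not tested. The sequences are from RefSeq on build GRCm38.p6, each with 250 bases before and 50 bases after the annotated start, read 5′ to 3′ on the gene's strand. Alas2 lies on the plus strand at chrX:150547167-150547466, Hba-a1 on the plus strand at chr11:32283422-32283721, and Hbb-bt on the minus strand at chr7:103813874-103814173. Capitals mark GATAA (letters bound by the erythroid factor GATA1), CACCC (bound by KLF1) and CCAAT (bound by NF-Y), or the reverse complement of each.
Hba-a1: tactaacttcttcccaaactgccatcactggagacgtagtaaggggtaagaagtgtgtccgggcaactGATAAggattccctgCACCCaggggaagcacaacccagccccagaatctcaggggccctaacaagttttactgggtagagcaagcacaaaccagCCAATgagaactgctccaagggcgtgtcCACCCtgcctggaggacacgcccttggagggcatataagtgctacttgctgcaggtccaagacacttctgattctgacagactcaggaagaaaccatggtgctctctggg
Hbb-bt: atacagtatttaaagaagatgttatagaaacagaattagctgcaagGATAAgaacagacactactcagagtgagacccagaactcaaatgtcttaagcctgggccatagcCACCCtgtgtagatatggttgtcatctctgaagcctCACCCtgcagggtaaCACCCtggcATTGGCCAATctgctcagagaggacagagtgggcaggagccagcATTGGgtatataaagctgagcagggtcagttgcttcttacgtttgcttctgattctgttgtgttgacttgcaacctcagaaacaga
Alas2: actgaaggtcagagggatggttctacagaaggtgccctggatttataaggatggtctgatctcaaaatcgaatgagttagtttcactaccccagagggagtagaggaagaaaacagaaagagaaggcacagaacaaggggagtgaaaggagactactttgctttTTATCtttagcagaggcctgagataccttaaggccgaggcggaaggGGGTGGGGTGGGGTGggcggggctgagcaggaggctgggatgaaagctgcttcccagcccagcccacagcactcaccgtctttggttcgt

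Both strands were searched, and no match overlapped another. The Hba-a1 window held 1 GATAA, 2 CACCC and 1 CCAAT match, and the Hbb-bt window held 1, 3 and 3 of them. In Hbb-bt the reverse complement of CCAAT and CCAAT itself abut at positions -80 and -75, counted to the first base of the match with -1 just before the start, with CACCC matches at -140, -104 and -89. The Alas2 window held 1 GATAA match, reversed, at -86, and 3 consecutive reversed CACCC matches at -40, -35 and -30, and no CCAAT. Of 32544 promoter windows of the same length, 25.3% held GATAA, 57.7% CACCC, 37.4% CCAAT and 4.83% all 3. At the best offset without gaps, the windows of Hba-a1 and its copy Hba-a2 had the same letters at 297 of 297 positions. Those of Hbb-bt and Hbb-bs had them at 168 of 299, a count that an inserted or lost base would lower. These counts concern promoters, not the transcripts that the array features read. Whether the features tell the globin copies apart was not tested, so each globin value may include signal from a copy.

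The values are log2 signals, normalized between arrays, so a difference of 1 is a doubling of signal. Over all 76 arrays the mean signal was 12.02 for Hba-a1, 8.93 for Hbb-bt, 6.48 for Alas2 and 4.71 for Slc4a1. As signals of different probes, these are not levels that can be set against each other. The percentiles of these means among the 20710 genes were 98.3, 89.0, 70.0 and 53.9. Odorant and vomeronasal receptor genes, known mainly from the nose, gave a scale for low signal: 95% of their single values lay at or under 3.99. Hba-a1 lay above that value on every array. Slc4a1 was not above it on 23 of 37 vessel and 10 of 39 septa arrays, Alas2 on 12 and 4, and Hbb-bt on 2 and 0, so differences that involve those values have uncertain size.

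The arrays of a tissue were alike, with a median correlation to the others of 0.80 to 0.88 in vessels and 0.90 to 0.93 in septa. By the labels 2 wild-type control vessel arrays at 3 months came from mouse 25, and they were averaged in the fits within vessels. These arrays differed by 6.03 log2 units for Alas2, 2.36 for Hbb-bt, 1.90 for Slc4a1 and 1.27 for Hba-a1. Over all genes they had an r of 0.85, where the other pairs of arrays in the group had 0.83 to 0.88. The genes of the X and Y chromosomes gave opposite sex patterns in the septa and vessel arrays of mice 7 and 29. Mouse 7, a knockout control at 8 months, had Xist at 2.07 in septa and 12.92 in the vessel. Mouse 29, a wild-type control at 8 months, had 12.48 and 3.45. For these mice the arrays go against their mouse number. Whether their genotype or group labels are also wrong was not tested, so values of the 8-month control groups carry this doubt. The values without these mice are given where a result rests on the mouse, and among the alternatives where a group comparison changed. P-values measure only the spread between these arrays.

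Apart from Slc4a1 in vessels, the red cell genes varied more within groups than most genes did. Apart from mouse 25, each mouse gave 1 array per tissue, so spread between mice and between arrays cannot be told apart. The 2 vessel arrays of mouse 25 differed by as much as 6.03 (Alas2). Within groups the SD of Alas2 was 2.73 in vessels and 2.10 in septa, against a median gene at 0.98 and 0.74. Its percentile among all genes was 99.8 in vessels and 99.9 in septa. Hbb-bt had an SD of 2.42 in vessels and 1.45 in septa (percentiles 99.4 and 96.1), Hba-a1 of 2.36 and 1.18 (percentiles 99.2 and 86.1), and Slc4a1 of 1.12 and 2.05 (percentiles 59.3 and 99.9). Slc4a1 was thus widely spread in septa and near the middle of all genes in vessels, where most of its values were at the low end of the scale.

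In vessels Hba-a1 averaged 12.71 ± 2.16 (SD, n = 4 or 5 in each group) in smoke-exposed and 10.95 ± 3.19 in control knockout mice at 8 months, and 11.41 ± 1.20 in smoke-exposed and 11.52 ± 1.11 in control knockout mice at 3 months. In wild-type vessels it averaged 12.21 ± 1.61 with smoke and 10.07 ± 1.94 without at 8 months, and 11.86 ± 1.91 and 10.33 ± 4.23 in the same order of exposure at 3 months. Both wild-type control groups thus had the lowest vessel means. In septa it averaged 12.69 ± 1.66 in smoke-exposed and 11.70 ± 0.86 in control knockout mice at 8 months, and 12.72 ± 0.99 and 13.98 ± 0.47 at 3 months. Wild-type septa gave 13.07 ± 1.11 in smoke-exposed and 11.90 ± 1.40 in control mice at 8 months, and 12.80 ± 1.20 and 12.40 ± 1.36 at 3 months. The highest group mean was that of knockout control septa at 3 months and the lowest that of wild-type control vessels at 8 months. Between neighbours in the order of the 16 means the gap was within the smaller of the neighbours' SDs in 14 of 15 cases.

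Hbb-bt, the beta chain, followed the same order at both ends. In vessels it averaged 9.27 ± 2.77 in smoke-exposed and 8.32 ± 2.16 in control knockout mice at 8 months, and 8.17 ± 2.03 and 8.30 ± 1.63 at 3 months. Wild-type vessels averaged 9.37 ± 1.11 with smoke and 6.85 ± 2.69 without at 8 months, and 9.26 ± 1.82 and 7.17 ± 4.14 at 3 months. The wild-type controls were again lowest among vessels. In septa the means were 9.87 ± 1.58 in smoke-exposed and 8.40 ± 1.83 in control knockout mice at 8 months, and 8.89 ± 1.54 and 11.05 ± 0.27 at 3 months. Wild-type septa had 10.03 ± 1.25 with smoke and 8.76 ± 1.63 without at 8 months, and 9.51 ± 1.54 and 9.69 ± 1.38 at 3 months. The smallest SD, 0.27, was that of the knockout control septa at 3 months, the group with the highest mean. In 14 of 15 neighbouring pairs of groups the gap was within the smaller SD.

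Alas2, the heme synthesis gene, reached from 1.65 to 9.70 in vessels and from 1.68 to 10.46 in septa. In vessels it averaged 6.49 ± 2.79 in smoke-exposed and 5.93 ± 2.89 in control knockout mice at 8 months, and 5.45 ± 3.21 and 6.58 ± 3.15 at 3 months. Wild-type vessels gave 6.08 ± 1.56 and 4.66 ± 2.06 at 8 months, and 6.03 ± 2.61 and 5.83 ± 3.10 at 3 months, again with smoke before control. In every vessel group except wild-type smoke at 8 months, at least 1 mouse had Alas2 at the level of the receptor genes while others were high. In septa it averaged 6.45 ± 2.87 in smoke-exposed and 6.71 ± 0.91 in control knockout mice at 8 months, and 6.25 ± 2.78 and 9.08 ± 0.83 at 3 months. Wild-type septa gave 8.01 ± 1.47 in smoke-exposed and 6.01 ± 2.12 in control mice at 8 months, and 6.64 ± 3.08 and 7.86 ± 0.80 at 3 months. The gap was within the smaller SD for 13 of 15 neighbouring pairs of groups.

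Slc4a1, the anion exchanger, was near the receptor value in many vessels. In vessels it averaged 4.25 ± 1.08 in smoke-exposed and 3.22 ± 1.11 in control knockout mice at 8 months, and 3.61 ± 1.31 and 4.15 ± 0.96 at 3 months. Wild-type vessels gave 4.78 ± 1.96 in smoke-exposed and 2.66 ± 0.51 in control mice at 8 months, and 4.14 ± 0.61 and 3.92 ± 0.99 at 3 months. None of the 5 wild-type control vessels at 8 months was above the value of 3.99. In septa the means were 3.91 ± 1.55 in smoke-exposed and 5.48 ± 1.87 in control knockout mice at 8 months, and 6.26 ± 1.52 and 7.82 ± 2.21 at 3 months. Wild-type septa had 4.37 ± 2.67 in smoke-exposed and 4.84 ± 1.33 in control mice at 8 months, and 5.43 ± 2.45 and 6.73 ± 2.43 at 3 months. The gap was within the smaller SD for 14 of 15 neighbouring pairs of groups.

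**Figure D1:**
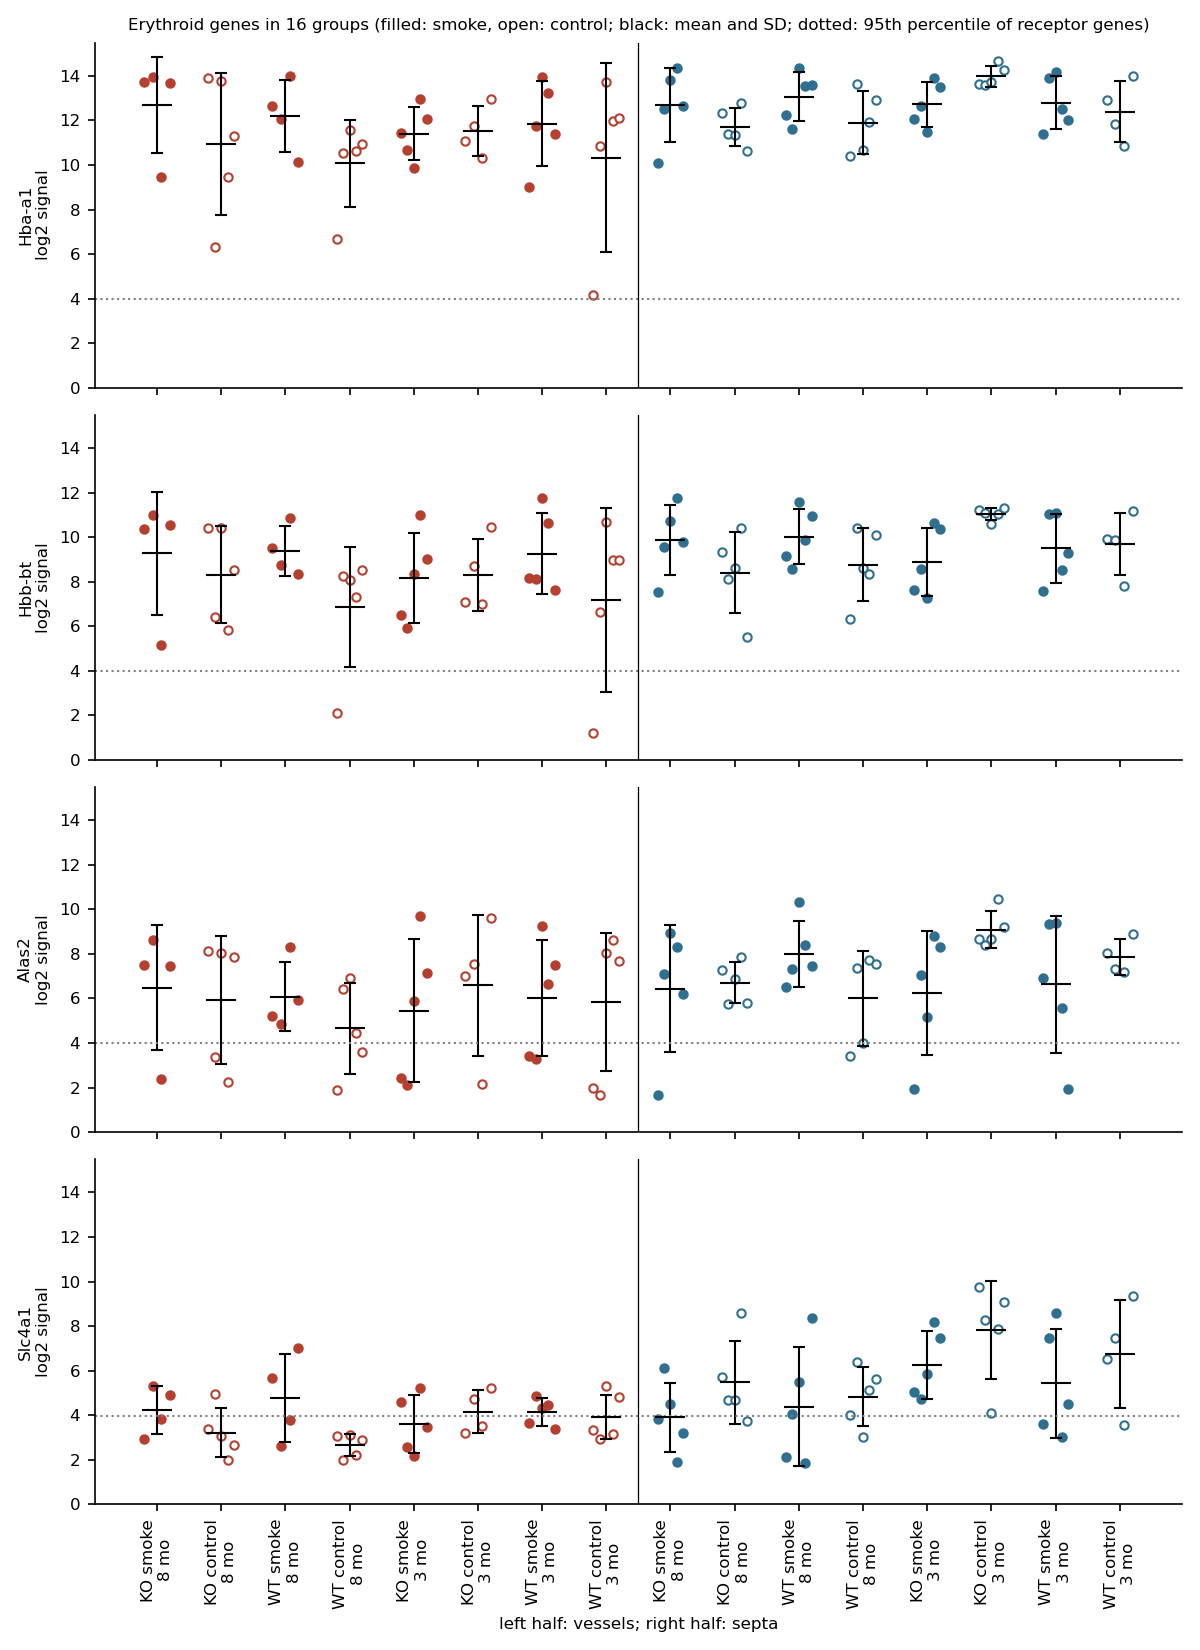
Log2 signal of the 4 genes on each array (points: filled with smoke, open for controls) in vessels (left) and septa (right), with the mean and SD of each group in black. The wild-type control vessels at 3 months show 5 arrays, of which the 2 of mouse 25 count as 1 in the mean, and the dotted line is the receptor value of 3.99. All 4 genes peak in knockout control septa at 3 months, and the lowest single Hba-a1 and Hbb-bt values are in vessels.

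The tissues were compared to see whether the red cell genes differed between vessels and septa of the same lungs. All 4 were lower in vessels on average, and 3 passed the test. Hba-a1 ranged from 4.14 to 14.02 in vessels, with a median of 11.55, and from 10.07 to 14.67 in septa, with a median of 12.66. Hbb-bt ranged from 1.21 to 11.75 in vessels, with a median of 8.52, and from 5.51 to 11.78 in septa, with a median of 9.88. For both globins the vessels covered most of the range of the septa, and the lowest vessel arrays lay far under the lowest septa. Slc4a1 ranged from 1.99 to 7.03 in vessels, with a median of 3.46, and from 1.85 to 9.75 in septa, with a median of 5.13. Its septa reached much higher than its vessels, while the lowest arrays of both were alike.

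In a fit of all 76 arrays with mouse as a random block, Slc4a1 was lower in vessels by -1.77 ± 0.37 (SE), a 3.41-fold difference (adjusted p 8.47e-05). Hba-a1 differed by -1.25 ± 0.39 (2.37-fold lower, adjusted p 0.00933) and Hbb-bt by -1.17 ± 0.42 (2.25-fold lower, adjusted p 0.0263). Alas2 differed by -1.27 ± 0.53 and did not pass (adjusted p 0.061). Of all genes 28.9% passed for vessel minus septa, 16.2% as lower in vessels, so 3 of 4 stands beside that share. Alas2 passed with array weights (-1.48, adjusted p 0.0211) and with mouse as a fixed factor (-1.17, adjusted p 0.0353). Over its alternatives, apart from leaving out 1 mouse at a time, the adjusted p of Alas2 lay between 0.0211 and 0.0939. It also passed without any 1 of mice 4, 11, 14, 20, 22, 26 or 35 (lowest 0.0297), while the highest value without 1 mouse was 0.114. The other 3 genes passed under every alternative that was run.

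Paired by mouse number, 35 mice had both tissues. Hba-a1 was lower in the vessels of 28 and Slc4a1 in those of 27. Hbb-bt was lower in 23 and Alas2 in 22. The mean paired difference was -1.23 ± 1.89 (SD) for Hba-a1 (two-sided sign-flip permutation test with 100000 resamples, p = 0.00034), -1.86 ± 2.19 for Slc4a1 (p = 4e-05), -1.07 ± 2.11 for Hbb-bt (p = 0.00368) and -1.13 ± 2.58 for Alas2 (p = 0.0138). These are 4 tests, and the p-values are not adjusted. Without mice 7 and 29 the mean differences were -1.20, -1.80, -1.06 and -1.05 in the same order of genes, with p of 0.00091, 0.00012, 0.00603 and 0.0277. For both globins the largest fall was in mouse 23, a wild-type control at 3 months, with 4.14 in the vessel and 10.84 in the septa for Hba-a1 and 1.21 and 7.82 for Hbb-bt. Mouse 28, a wild-type control at 8 months, had 6.67 in the vessel and 10.66 in the septa for Hba-a1, and mouse 10, a knockout control at 8 months, had 6.30 and 10.64.

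**Figure D2:**
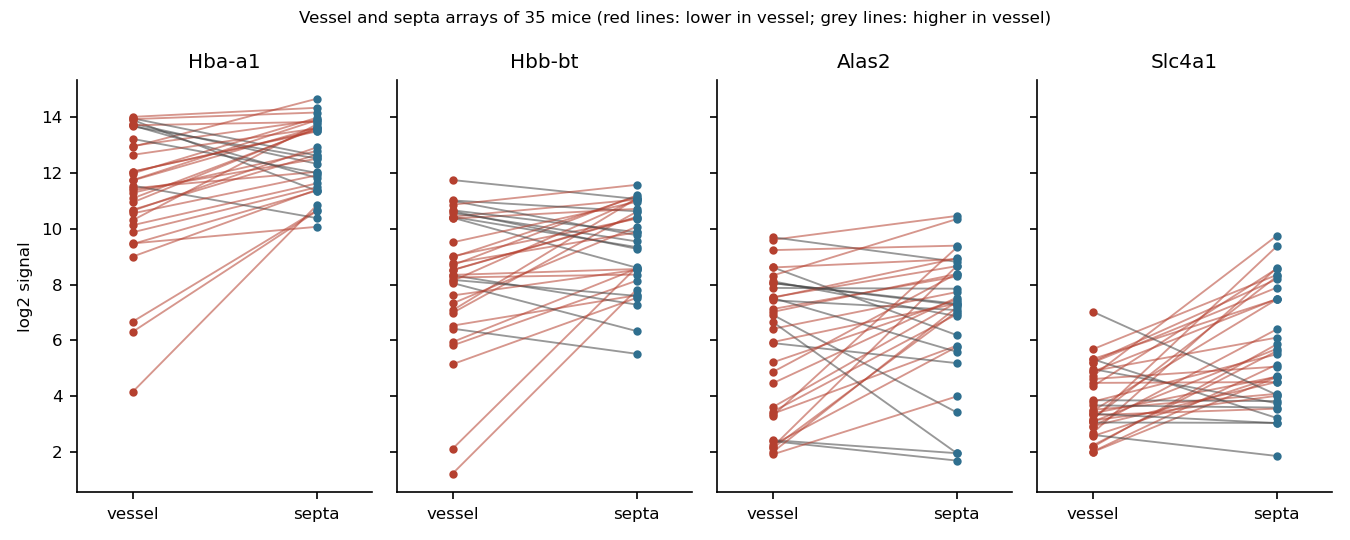
Log2 signal of each gene in the vessel and the septa of 35 mice, joined by a line (red: lower in the vessel, grey: higher in the vessel). Hba-a1 was lower in the vessel of 28 mice, Slc4a1 of 27, Hbb-bt of 23 and Alas2 of 22, and 3 vessels with Hba-a1 under 7 stand far below their septa.

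By group, Hbb-bt was lower in vessels in 8 of 8 sets of genotype, exposure and time, Hba-a1 and Alas2 in 7 and Slc4a1 in 6. The differences in knockout controls at 3 months were -2.75 for Hbb-bt and -2.47 for Hba-a1, the widest for either gene, and there the vessel and septa arrays did not overlap, as for 6.92% of all genes. In the other sets the 4 genes overlapped, where 5.86% of genes did not overlap in knockout controls at 8 months, 4.47% and 5.89% in knockout smoke at 3 and 8 months, 8.6% and 4.08% in wild-type controls at 3 and 8 months, and 3.83% and 6.89% in wild-type smoke at 3 and 8 months. In knockout mice with smoke at 8 months Hba-a1 (0.02), Alas2 (0.04) and Slc4a1 (0.34) had differences above 0, as did Slc4a1 in wild-type mice with smoke at 8 months (0.40).

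Other genes of the lineage were set beside the 4. The lists include the members themselves. Over all genes 16.2% were called lower and 12.7% higher in vessels, and the counts of each list stand beside these shares. The globin list had 9 of 11 members tested, of which 5 were lower in vessels, none was higher and 4 did not pass (median difference -0.98, against 0.02 over all genes). The 5 were Hbb-b2 (7.50 in vessels and 9.20 in septa, -1.64 ± 0.38, adjusted p 0.000347), Hbb-bs (-1.58 ± 0.46), Hba-a1, Hba-a2 (-0.98 ± 0.32) and Hbb-bt. The 4 that did not pass were the embryonic globins Hbb-y, Hbb-bh1 and Hba-x and the globin Hbq1b, with means of 2.02 to 2.40 in vessels and 1.91 to 2.21 in septa, all in the range of the receptor genes. Only these 5 lower globins had means above the receptor range. Hbb-b2 is not among the beta chains named above for the strain of the knockout mice. Its feature may read signal of another beta globin, which was not tested. The 5 features thus need not stand for 5 separate genes.

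Of the heme synthesis genes 1 was higher, 2 were lower and 9 did not pass among 12 tested (median -0.09). These counts are near the shares over all genes, 12.7% higher and 16.2% lower. Alas1, the form of the enzyme that cells other than red cells use, was higher in vessels (9.97 in vessels and 8.95 in septa, 1.05 ± 0.14, adjusted p 2.12e-09). Slc25a37, the mitochondrial iron importer, was lower (-0.72 ± 0.18, adjusted p 0.000772), as was Tmem14c, which carries heme precursors (-0.60 ± 0.23). Among the red cell membrane genes 3 were higher, 4 lower and 7 not past of 14 tested (median 0.04). Slc4a1 was 1 of the 4 lower, with Ermap, Rhd and Tmod1, while Xk (5.22 in vessels and 2.08 in septa), Gypc and the spectrin anchor Ank1 were higher. Most of the membrane genes, 9 in vessels and 8 in septa, had means in the range of the receptor genes.

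The shares over all genes, 16.2% lower and 12.7% higher in vessels, also stand beside the next lists. Among the regulators of the lineage 4 of 9 were lower in vessels, none was higher and 5 did not pass (median -0.38). These were Nfe2 (3.87 in vessels and 6.88 in septa, -3.00, adjusted p 5.16e-12), Lmo2, Bcl11a (2.49 in vessels and 3.48 in septa) and Gata1 (2.67 in vessels and 4.04 in septa). Means in the receptor range were those of Bcl11a in both tissues and of Nfe2 and Gata1 in vessels, so the size of these differences is uncertain. Klf1, the factor of late erythroid genes, was at 1.86 in vessels and 1.92 in septa, and Gfi1b at 2.11 and 2.13, both in the receptor range. Markers of late red cells had 2 higher, 3 lower and 6 not past of 11 tested (median 0.02), with Car2 (-2.79, adjusted p 1.63e-12) and Bpgm, the enzyme that makes the ligand that lowers oxygen affinity of haemoglobin (-1.36), lower, and Tent5c (2.28) and the peroxiredoxin Prdx2 (0.36) higher. Of the heme and iron handling genes 2 were higher, 3 lower and 7 not past of 12 (median 0.01). Slc40a1, the iron exporter (-2.85), and Tfrc, the transferrin receptor (-1.46), were lower, while Blvrb, a biliverdin reductase (0.75, adjusted p 0.00255), and Hamp, which encodes hepcidin (1.62, adjusted p 0.0101, in the range of the receptor genes in both tissues), were higher. Hp, which binds free haemoglobin, and Hmox1, which degrades heme, did not pass (0.26 ± 0.14 and -0.39 ± 0.25).

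Markers of blood cells other than red cells also differed between the tissues, beside 16.2% of all genes called lower and 12.7% higher in vessels. Their part in the result was not tested. In vessels 5 of 11 platelet markers were lower, 1 was higher (Pf4) and 5 did not pass (median -0.64), and Ppbp had 4.06 in vessels and 7.79 in septa. The summed platelet signal of an array lay between 7.57 and 9.85 in vessels and 8.38 and 11.01 in septa (log2). Of the neutrophil markers 7 of 9 were lower (median -1.72), of the B cell markers 6 of 7 (median -1.55) and of the T cell markers 3 of 7 (median -0.30). Their summed signals were 13.18 to 15.14, 8.96 to 11.23 and 7.87 to 11.11 in vessels, and 14.03 to 16.29, 10.39 to 12.15 and 8.57 to 10.24 in septa. Of the platelet markers 6 of 11 had means in the receptor range in each tissue. Capillary endothelial markers were lower for 9 of 10 (median -1.42, summed signal 11.39 to 13.35 in vessels and 13.29 to 14.06 in septa), and all 8 type 1 and all 8 type 2 pneumocyte markers were lower, with medians of -2.27 and -1.25. All 10 smooth muscle markers were higher (median 3.82), which checks the dissection label.

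Across mice of the same group, deviations from the group mean were correlated to ask whether the 4 genes varied together, in a family of 24 relations with permutation tests of 100000 resamples. Hbb-bt and Hba-a1 had a Pearson r of 0.90 in vessels (Spearman 0.92, 36 mice) and 0.91 in septa (Spearman 0.88, 39 mice), with a permutation p of 1e-05, the smallest these can give, and an adjusted p of 4e-05 in each. Alas2 and Hba-a1 had an r of 0.74 (Spearman 0.81) in vessels and 0.79 (Spearman 0.85) in septa, and Alas2 and Hbb-bt 0.83 (Spearman 0.86) and 0.69 (Spearman 0.73), all with an adjusted p of 4e-05. Without the 2 arrays farthest from the median of the first gene, the r of Hbb-bt and Hba-a1 was 0.85 in vessels and 0.92 in septa. The points share the amplification, labelling and normalization of their array.

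Slc4a1 correlated with the other 3 past the threshold in septa. In septa its r was 0.61 with Hbb-bt (Spearman 0.66, adjusted p 0.00014), 0.53 with Hba-a1 (Spearman 0.57, adjusted p 0.00157) and 0.42 with Alas2 (Spearman 0.52, adjusted p 0.0152). In vessels the r was 0.22 (Spearman 0.27, adjusted p 0.284), 0.09 (Spearman 0.20, adjusted p 0.624) and 0.18 (Spearman 0.19, adjusted p 0.409), and none passed. The difference between the tissues was not tested. Array quality was set beside these values, in tests chosen after seeing the data, and its part in the result was not tested. In vessels the deviations of Slc4a1 had an r of -0.48 (Spearman -0.45) with the median correlation of the array to the others (permutation p adjusted over 8 tests 0.0245, Spearman 0.0516), and -0.38 without the 2 farthest arrays. Alas2 in vessels had an r of -0.42 (Spearman -0.38, adjusted p 0.0408, Spearman 0.0633), and -0.28 without 2 arrays. The other 6 tests of quality did not pass (r of -0.36 to -0.01).

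The same mouse tended to be high or low in both tissues for the globins. Over 35 mice the r between the septa and the vessel was 0.61 for Hba-a1 (Spearman 0.57, adjusted p 0.00021), 0.53 for Hbb-bt (Spearman 0.58, adjusted p 0.00204) and 0.41 for Alas2 (Spearman 0.42, adjusted p 0.0236). Slc4a1 had 0.22 (Spearman 0.21) and did not pass (adjusted p 0.284). Without the 2 farthest mice the r was 0.58, 0.59, 0.40 and 0.16 in the same order. Without mice 7 and 29 it was 0.61, 0.55, 0.40 and 0.22.

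Hba-a1 was further set beside 1 marker each of platelets, neutrophils, B cells and smooth muscle. With the platelet gene Ppbp its r was 0.34 in vessels (Spearman 0.32, adjusted p 0.0699) and 0.50 in septa (Spearman 0.50, adjusted p 0.00242). The vessel value without the 2 farthest arrays was 0.42 (adjusted p 0.0246), so the call there changes with those arrays. S100a8 of neutrophils had an r of 0.15 in vessels and 0.29 in septa, Cd79a of B cells -0.04 and -0.09, and Acta2 of smooth muscle -0.09 and -0.16, and these 6 relations did not pass.

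**Figure D3:**
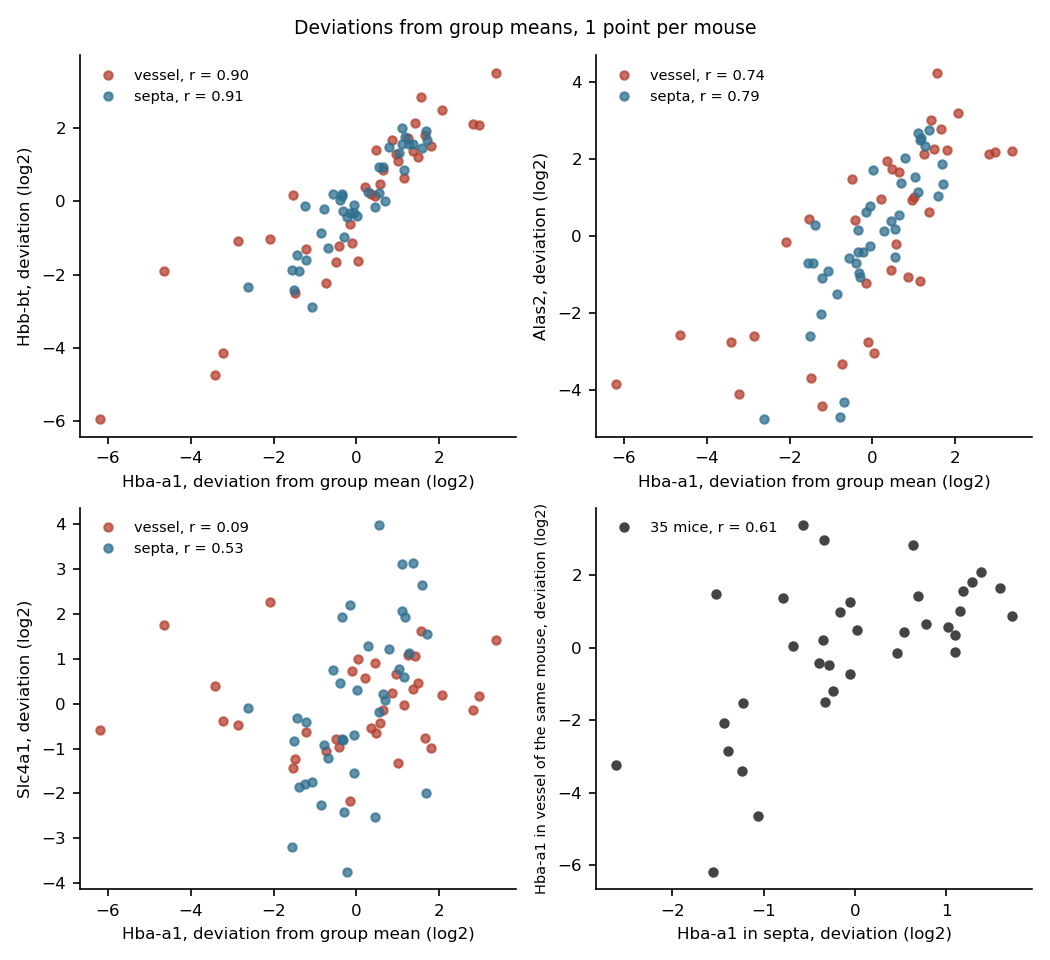
Deviation of Hbb-bt, Alas2 and Slc4a1 from the group mean against that of Hba-a1, with 1 point per mouse in vessels (red) and septa (blue), and of Hba-a1 in the vessel against the septa of the same mouse (last panel). Hbb-bt and Alas2 line up with Hba-a1 in both tissues (r of 0.74 to 0.91), Slc4a1 only loosely in septa (0.53) and hardly in vessels (0.09).

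Over all genes with a mean signal above the receptor value (11006 ranked), the closest to the mean of the 4 genes were ranked by the lower of the r in septa and vessels, over 39 and 36 mice. Since this ranking uses the 4 genes' own deviations, their own values are a description. Whether features of globin copies share signal was not tested, so the rank of the other adult globins is a description too. This holds also for Hbb-b2, which is not among the beta chains named above for the strain of the knockout mice. Leaving the 4 out, the most alike were Hba-a2 (0.89 in vessels and 0.92 in septa), Hbb-b2 (0.86 and 0.91), Hbb-bs (0.82 and 0.90) and Zdhhc22 (0.84 and 0.81), a member of the family of palmitoyltransferases. Then came a gap to Cbln2 (0.45 and 0.43), Tbx6 (0.50 and 0.42), Crabp2 (0.43 and 0.42), Celf6 (0.52 and 0.40), Mcur1 (0.39 and 0.43) and Dot1l (0.42 and 0.37). Zdhhc22 was lower in vessels by -0.63 ± 0.23 (adjusted p 0.0289). Its mean signal over all arrays was 5.43. Some of its vessel values lay under the receptor value, with the lowest at 3.12, so the size of this difference is uncertain. After the adult globins and the members, the next ranked gene of the globin, heme synthesis, membrane and regulator lists was Nfe2. It had rank 141 (0.24 in vessels and 0.48 in septa). Alas1, the non-erythroid enzyme, lay at the other end, with an r of -0.31 in vessels and -0.50 in septa. Correlations were computed over genes that share arrays, and no p is given for this ranking.

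**Figure D4:**
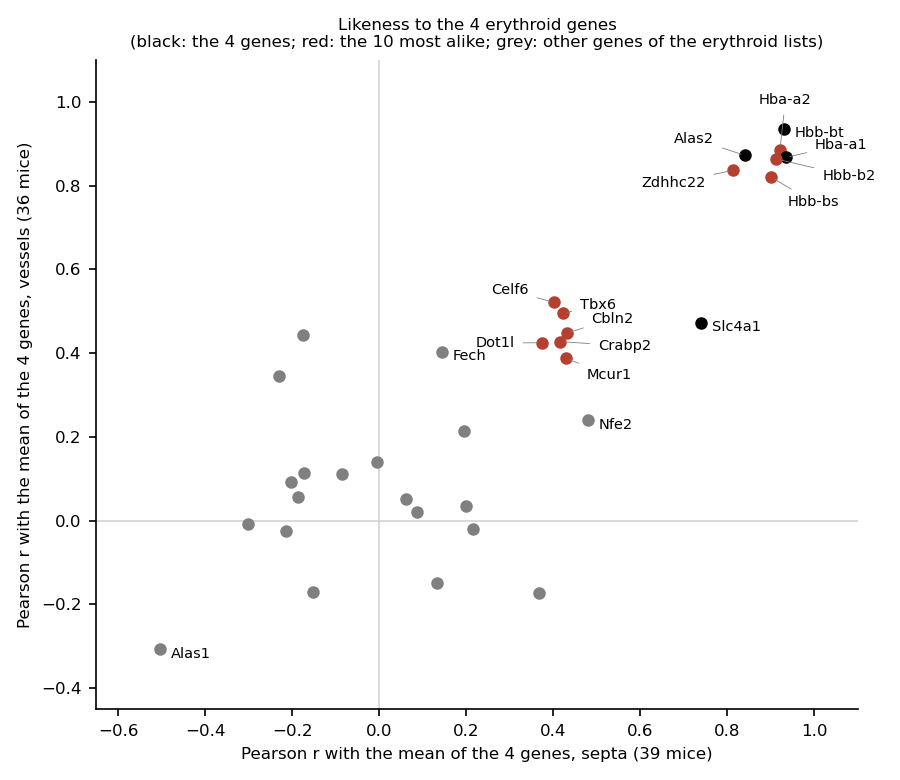
Pearson r of each gene's deviations with the mean of the 4 genes in septa (x axis) and vessels (y axis). The 4 genes are black, the 10 most alike red and the other erythroid genes grey. The adult globins and Zdhhc22 sit at the upper right with r over 0.8, the rest of the 10 below 0.55, and Alas1 at the lower left.

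The 8 smoke-exposed groups were set against their controls, since the series concerns smoke-induced emphysema and pulmonary hypertension. No member passed adjustment in any of the 8 comparisons, in which limma called 0.00483% of genes in wild-type septa at 3 months and 0% in the other 7. No member had smoke and control groups that did not overlap, against 1.54%, 0.806%, 0.7% and 1.06% of all genes in septa (wild type at 3 and 8 months, then knockout likewise). In vessels these shares were 1.59%, 1.37%, 1.6% and 1.51%. In 3 of 32 cases the unadjusted p was under 0.05, beside 2.94% to 6.55% of all genes over the 8 comparisons, and these are given with their values.

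In knockout septa at 3 months Hbb-bt had 7.62, 8.57, 7.28, 10.63 and 10.36 with smoke, against 11.20, 11.09, 10.61, 11.05 and 11.31 in controls. The 5 controls lay close together, and 1 smoke-exposed mouse lay just above the lowest control. The difference was -2.16 ± 0.80 (adjusted p 0.999, unadjusted 0.00993, a 95% interval from -3.78 to -0.55). Alas2 had 1.95, 7.03, 5.18, 8.82 and 8.29 with smoke, against 8.66, 8.38, 8.67, 10.46 and 9.21 in controls, a difference of -2.82 ± 1.16 (adjusted p 0.999, unadjusted 0.0195). Hba-a1 (-1.27 ± 0.64) and Slc4a1 (-1.56 ± 1.15) lay on the same side of 0. Of all genes in this comparison 3.54% had an unadjusted p under 0.05. Leaving out each array in turn moved Hbb-bt between -2.60 and -1.76 and Alas2 between -3.46 and -1.75. There Xist was high, as in females, in 3 of 5 smoke-exposed and 2 of 5 control mice. The smoke-exposed mice with the female pattern were those with Hbb-bt at 7.62, 8.57 and 7.28 and Alas2 at 1.95, 7.03 and 5.18. Those without it had Hbb-bt at 10.63 and 10.36 and Alas2 at 8.82 and 8.29. The controls with the female pattern had Hbb-bt at 11.20 and 11.31. With sex as a covariate the Hbb-bt difference was -2.08. That covariate cannot describe a smoke effect that differs by sex, which was not tested.

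In wild-type vessels at 8 months Slc4a1 had 5.68, 2.61, 3.79 and 7.03 with smoke, against 3.05, 2.00, 3.12, 2.22 and 2.90 in controls. Of the 4 smoke-exposed vessels 2 lay above 5 and 1 fell within the range of the controls, all of which lay in the range of the receptor genes. The difference was 2.12 ± 0.79 (adjusted p 1, unadjusted 0.0115, a 95% interval from 0.51 to 3.73). Of all genes 2.94% had an unadjusted p under 0.05 there. Hbb-bt differed by 2.52 ± 1.46 and Hba-a1 by 2.14 ± 1.40. The 4 smoke-exposed vessels had a female pattern in 3 cases and the 5 controls in none, and the part of sex in the result was not tested beyond a covariate. With sex as a covariate the Slc4a1 difference was 2.11 (adjusted p 1), and over the 12 alternatives its adjusted p lay between 0.999 and 1.

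Averaged over genotypes and times, the smoke effect in vessels was 1.33 ± 0.70 for Hba-a1, 1.36 ± 0.73 for Hbb-bt, 0.71 ± 0.40 for Slc4a1 and 0.26 ± 0.83 for Alas2, and limma called 0% of genes. In septa it was 0.32 ± 0.33, 0.10 ± 0.41, -1.22 ± 0.59 and -0.58 ± 0.59 in the same order, again with 0% of genes called and an unadjusted p of 0.0427 for Slc4a1, where 7.7% of all genes had one under 0.05. Markers of other cells stood beside these means, with none past, and their part in the result was not tested. In vessels all 10 smooth muscle markers lay below 0 (median -0.35) and 8 of 9 neutrophil markers above 0 (median 0.41), and in septa 7 of 10 and 1 of 9 did (medians -0.10 and -0.30). For smoke by tissue, vessels minus septa, Slc4a1 had 1.93 ± 0.74 (adjusted p 0.723), where 0.00966% of genes passed. The other members had adjusted p of 0.883 to 0.945 there. No gene of the globin, heme synthesis, membrane, regulator, late red cell, iron or platelet lists passed in any smoke or genotype comparison. The list of 9 globins holds Hba-a1, Hbb-bt and their copies, so its medians are a description of the members too. Its median smoke difference was -1.27 in knockout septa at 3 months, the value of Hba-a1 itself, and 1.96 in wild-type vessels at 8 months. In these comparisons members had an unadjusted p under 0.05. The medians there were -0.03 and -0.01 over all genes, and -0.15 and -0.18 for the 11 platelet markers. In the other smoke comparisons the globin median lay between -0.01 and 1.01. The interactions of smoke with genotype and with time passed for no gene. Among them Hbb-bt had 3.63 ± 1.13 for smoke at 8 minus smoke at 3 months in knockout septa (adjusted p 0.9999, unadjusted 0.00258). There 4.25% of genes had an unadjusted p under 0.05. The value is the difference of 1.47 ± 0.80 at 8 months and -2.16 ± 0.80 at 3 months. Hba-a1 had 2.25 ± 0.91, Alas2 2.56 ± 1.64 and Slc4a1 -0.005 ± 1.63. At 8 months 4 of 5 smoke-exposed and 0 of 5 control knockout septa had a female pattern. The part of sex was not tested beyond a covariate, and over the 11 alternatives Hbb-bt lay between 3.56 and 4.02.

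**Figure D5:**
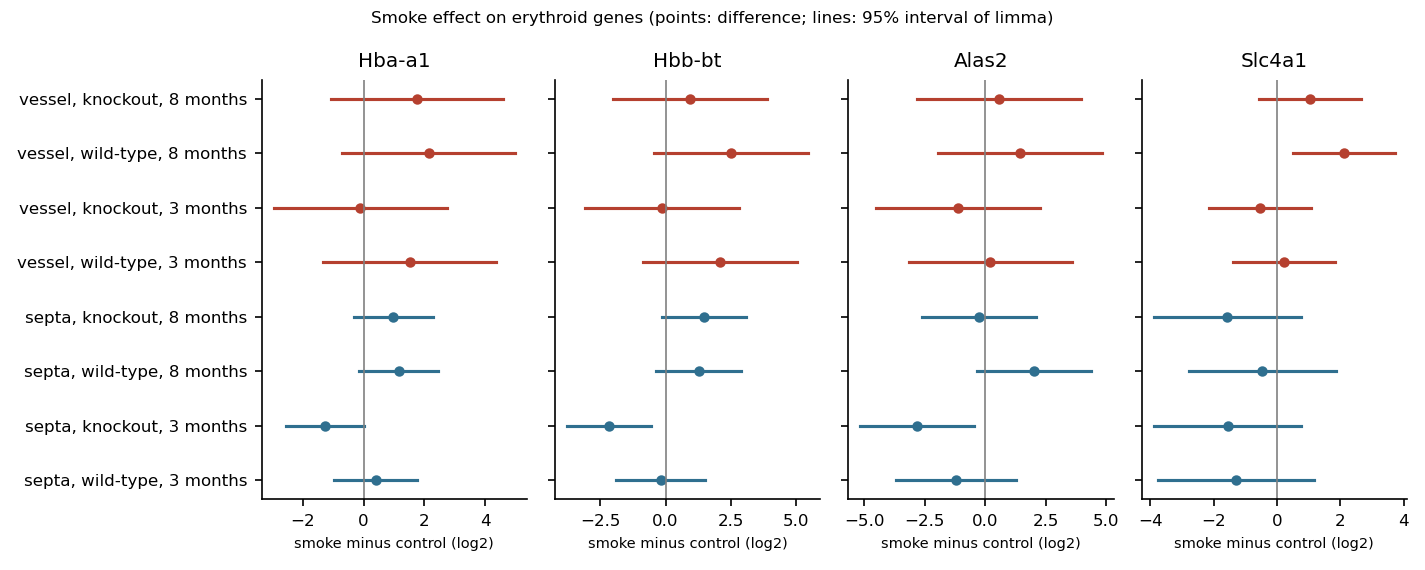
Smoke minus control in log2 units (points) with the 95% interval from limma (lines) for each gene, tissue, genotype and time, vessels above septa. The intervals of Hbb-bt and Alas2 in knockout septa at 3 months lie under 0 and that of Slc4a1 in wild-type vessels at 8 months above 0, and none passed adjustment.

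The mean difference of knockout minus wild type was 0.53 ± 0.70 for Hba-a1, 0.35 ± 0.73 for Hbb-bt, 0.47 ± 0.83 for Alas2 and -0.07 ± 0.40 for Slc4a1 in vessels, and 0.23 ± 0.33, 0.06 ± 0.41, -0.01 ± 0.59 and 0.52 ± 0.59 in septa, with no gene called in either tissue. Slc4a1 was lower at 8 than at 3 months in septa by -1.91 ± 0.59, which missed the threshold (adjusted p 0.0571), beside 3.5% of genes called. Its means at 8 months were 3.91 and 5.48 in knockout and 4.37 and 4.84 in wild-type mice, smoke before control, against 6.26, 7.82, 5.43 and 6.73 at 3 months. Each of the 4 groups at 8 months thus lay under its group at 3 months. In the same comparison 4 of 9 neutrophil markers (median 0.74), 2 of 8 type 2 pneumocyte markers (median 0.15) and 1 of 12 heme and iron handling genes (median 0.19) were higher at 8 months, and no gene of the other lists passed. Their part in the result was not tested. The adjusted p was 0.0493 with the filter on low values and 0.0445 in 1 fit over 76 arrays, and lay between 0.0445 and 0.0902 over the 10 alternatives. It passed without any 1 of 8 arrays of septa: knockout control 3 months replicate 3, knockout control 8 months replicate 4, knockout smoke 8 months replicate 2, wild-type control 3 months replicate 3, wild-type control 8 months replicate 2, wild-type smoke 3 months replicates 1 and 4, and wild-type smoke 8 months replicate 5 (lowest adjusted p 0.0206). In vessels the difference was -0.23 ± 0.40 (adjusted p 0.855, with 1.27% of genes called). Hba-a1 (-0.64 ± 0.33), Alas2 (-0.67 ± 0.59) and Hbb-bt (-0.52 ± 0.41) lay under 0 in septa without passing.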

How the data were processed

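Single-colour arrays of septa and vessels were used. Per the labels' protocols, RNA was isolated with the RNeasy Micro kit, amplified with Ovation PicoSL WTA V2 and labelled with Cy5. The deposited values are log2 signals, quantile normalized between arrays as the values themselves show (quartiles differ by at most 0.00235). The sources used here do not give the background correction. Of 62976 features 31465 had a gene symbol, RefSeq accessions named 29050 of these (2933 with a newer symbol) and the other 2415 stayed as listed. The 671 features that lacked a value on some array were left out, and the feature with the highest mean stood for each of the 6007 genes with several, leaving 20710 genes. No count or depth exists for array signals, and the number of arrays limits the precision.

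Fits per tissue used limma 3.58.1 (R 4.3.3) (a mean per group, eBayes with trend, Benjamini-Hochberg at 0.05 over all genes). Vessel minus septa used all 76 arrays with mouse as random block (consensus correlation 0.026). Group means are log2 means with SD. The limma code was tested on simulated data. Permutation tests used scipy 1.17.1, numpy 2.4.6 and pandas 2.3.3 in Python 3.11.15, figures matplotlib 3.10.9, and files were read with the R package data.table (1.17.8). The members and lists were chosen with earlier results of these data known. The receptor value was first taken from gene means and then from all single values of 1324 genes, a choice made after seeing both. Sex patterns came from Xist above 8, chosen after its values were seen, and the sex covariate from Xist minus 3 Y genes; Ddx3y was not analysed here. Some other genes of the lists are not reported here. Named genes were the 4 members, up to 4 genes per list of the red cell lineage and of heme and iron handling with the lowest p among those past (markers of other cells are given mainly as counts), and the 10 genes most alike, and the others named were chosen after their values were seen. Septa and vessel arrays were paired by the labels' mouse number (35 mice). Their mean r of deviations was 0.030, with 1 over 0.1, against -0.0071 for other mice of the same group.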

Additional observations from a re-analysis of the deposited data

Results flagged for a closer look

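In 4 of 64 sets of a gene and a group, 1 array stood apart from the rest of its group, where chance flags about 1 in 20. In knockout smoke-exposed vessels at 8 months replicate 3 (mouse 16) had 5.14 for Hbb-bt, against 10.37 to 11.00 on the other 3 arrays, and 9.48 for Hba-a1, against 13.68 to 13.97. In wild-type control vessels at 8 months replicate 1 (mouse 28) had 2.11 for Hbb-bt, against 7.32 to 8.52 on the other 4 arrays, and 6.67 for Hba-a1, against 10.55 to 11.55. Both arrays were low for both globins. The cause was not tested.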

How the results depend on the processing

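Apart from leaving out 1 array or mouse at a time, 1370 alternative values kept direction and side of the threshold, while 17 turned direction, 5 newly passed and 19 counts moved. The cause was not tested. Repeating quantile normalization gave 0.036 for Slc4a1 smoke by time in knockout septa. Array weights gave 0.62 for the same value, -0.032 for Hbb-bt smoke by genotype at 8 months in septa and 0.10 for Alas2 at 8 minus 3 months in vessels. The sex covariate gave, for Alas2, 0.34 for smoke in knockout septa at 8 months, 0.12 for genotype in septa, -0.35 for smoke in wild-type vessels at 3 months and 0.21 for 8 minus 3 months in vessels, and for smoke in knockout vessels at 3 months 0.36 for Hbb-bt and 0.28 for Hba-a1. Without mice 7 and 29 Alas2 had 0.16 for genotype in septa and -0.36 for smoke in knockout vessels at 8 months. Newly past were Slc4a1 at 8 minus 3 months in septa with the low-value filter (-1.91) and in 1 fit over 76 arrays (-1.91), Alas2 vessel minus septa with array weights (-1.48) and mouse as a fixed factor (-1.17), and Hba-a1 with Ppbp in vessels without the 2 farthest arrays (r 0.42). Hba-a1 with Cd79a in vessels had an r of 0.17 without these and 0.0016 with values not centred on groups, where Hba-a1 with S100a8 in septa had -0.037.

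Counts of called genes moved as follows. In 1 fit over 76 arrays they were 0 for smoke in wild-type septa at 3 months (also 0 with only the groups compared), 225 and 1111 for 8 minus 3 months in septa and vessels (725 and 262 in the fits per tissue), 34, 23 and 2 for smoke in wild-type vessels at 3 months and in knockout vessels at 3 and 8 months, 5 for mean smoke, 1 for genotype, 13 for smoke by genotype at 3 months and 1 for smoke by time in knockout, all in vessels. Mean smoke in vessels called 1 gene with the mean of all probes, 1 without trend and 1 with both mouse 25 arrays. For 8 minus 3 months in vessels 162 were called with the sex covariate and 148 without mice 7 and 29. Smoke by tissue called 1 without those mice and 0 with mouse as a fixed factor.

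Same-numbered replicates of different groups had a mean r of deviations of 0.012 in septa and 0.025 in vessels. Pairs with other numbers had -0.0031 and -0.0065. Septa and vessels of the same mouse number had 0.030, against -0.0071 for other mice of the same group. Whether replicate numbers mark pairs was not tested further. The replicate block was fitted only within each tissue, not for vessel minus septa. None of its 88 member results passed (lowest adjusted p 0.0583), and none had passed in the limma fits per tissue without it (lowest 0.0571). With the block Alas2 had 0.017 for genotype in septa and -0.052 for smoke in wild-type vessels at 3 months. It called 1 gene for smoke in knockout vessels at 8 months.

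Leaving out 1 array or mouse at a time moved these differences across 0 or the threshold, with their lowest and highest values. Hba-a1 ranged -0.31 to 0.50 for 8 minus 3 months (vessels), -2.76 to 0.42 for smoke by genotype, 3 months (vessels), -0.61 to 0.48 for smoke by genotype, 8 months (septa), -1.54 to 0.70 for smoke by genotype, 8 months (vessels), -0.51 to 2.67 for smoke by time, wild-type (vessels), -0.51 to 0.36 for smoke, knockout, 3 months (vessels), -0.12 to 0.93 for smoke, wild-type, 3 months (septa), -0.53 to 2.65 for smoke, wild-type, 3 months (vessels). Hbb-bt ranged -0.26 to 0.58 for 8 minus 3 months (vessels), -0.10 to 0.24 for genotype (septa), -0.15 to 0.69 for genotype (vessels), -0.085 to 0.24 for smoke (septa), -0.52 to 0.81 for smoke by genotype, 8 months (septa), -0.76 to 2.41 for smoke by time, wild-type (vessels), -0.84 to 0.58 for smoke, knockout, 3 months (vessels), -0.81 to 0.30 for smoke, wild-type, 3 months (septa). Alas2 ranged -0.55 to 0.16 for 8 minus 3 months (vessels), -0.30 to 0.29 for genotype (septa), -0.11 to 0.61 for smoke (vessels), -1.79 to 0.50 for smoke by genotype, 8 months (vessels), -0.89 to 0.92 for smoke, knockout, 8 months (septa), -0.36 to 1.93 for smoke, knockout, 8 months (vessels), -1.08 to 1.13 for smoke, wild-type, 3 months (vessels), -1.44 to -1.10 for vessel minus septa. Slc4a1 ranged -2.18 to -1.69 for 8 minus 3 months (septa), -0.25 to 0.12 for genotype (vessels), -1.20 to 0.80 for smoke by genotype, 3 months (septa), -0.55 to 0.93 for smoke by time, knockout (septa), -0.16 to 1.90 for smoke by time, wild-type (septa), -0.031 to 0.70 for smoke, wild-type, 3 months (vessels), -1.46 to 0.17 for smoke, wild-type, 8 months (septa). Called genes ranged 171 to 343 for 8 minus 3 months (vessels), 0 to 1 for genotype (vessels), 0 to 1 for smoke (vessels), 0 to 2 for smoke by genotype, 3 months (vessels), 0 to 1 for smoke by time, knockout (vessels), 1 to 3 for smoke by tissue, 0 to 1 for smoke, knockout, 3 months (vessels), 0 to 3 for smoke, knockout, 8 months (septa), 0 to 1 for smoke, wild-type, 3 months (septa).

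Each member had 1 feature, so no other probe was tried. Slc4a1 and Alas2 values near the receptor signal limit what can be seen in vessels.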
